A study of Mus musculus with 10 samples.

Results

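The complement genes described here are 9 genes, C1qa, C1qb, C1qc, C3, C4b, Cfp, Cfb, C3ar1 and C5ar1, out of the 53715 genes counted in each library. The rule that chose them names them by symbol, for the place of their proteins in the complement system, and uses no measured value. The choice was nevertheless made with earlier results of these data known. Microglia, the resident macrophages of the brain, from midbrain and striatum were bound to magnetic beads against CD11b, using untreated, healthy male C57BL/6 mice aged 3 months. Their poly-A RNA was sequenced with MARS-seq, which reads the 3′ ends of transcripts. The pilot cohort gave 2 midbrain and 2 striatum libraries, and the same numbers from a second cohort were compared here. Another 2 libraries of the second cohort carry labels that name both regions, and they entered no comparison. The study describes its replicates as mice in which both regions were examined, but which libraries share a mouse is not stated, so libraries were not paired and p-values measure the spread between these libraries. Beads that bind CD11b retain every cell carrying that integrin, which includes monocytes, neutrophils and the macrophages of the brain borders. By flow cytometry, the study counted nearly all cells of this fraction as microglia, with a few infiltrated myeloid cells.

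Complement is a cascade of plasma and tissue proteins that tags surfaces for removal. C1q, a bundle of A, B and C chains, starts the classical pathway by binding antibody or debris, after which C4 and C3 are cleaved and their fragments attach to the target. Properdin, the product of Cfp, and factor B, the product of Cfb, build and stabilise the alternative pathway enzyme that amplifies C3 cleavage. The small fragments C3a and C5a act on the receptors C3aR1 and C5aR1. In the brain, microglia are the main source of C1q, and C1q and C3 are known for tagging synapses during development.

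The assigned libraries held from 575709 (striatum second 3) to 8463782 counts (striatum pilot 2), with 4473445 to 5651084 in the midbrain libraries. In the second cohort both striatum libraries (2820369 and 575709 counts) were shallower than both midbrain libraries (5176234 and 4473445 counts), so depth and region go together there. A level of 3 counts, used as the floor, was therefore worth 5.21 CPM in the shallowest library and 0.354 CPM in the deepest, relative to the total counts and without TMM, and these floors cover counting error only. Apart from the floors, CPM, a gene's counts relative to the size of its library, is normalized by TMM, which corrects for differences in composition. Of 12 microglial marker genes, all were detected in all 8 libraries, and their summed level ran from 15770 to 19570 CPM in the midbrain and from 22080 to 30410 CPM in the striatum.

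The members lie on 5 chromosomes of the mouse build GRCm38, all on the minus strand. The C1q genes form a cluster on chromosome 4, with C1qb at chr4:136880129-136886187, C1qc at chr4:136889804-136893065 and C1qa at chr4:136895917-136898803. The gaps between them are 3616 and 2851 bases, and the cluster spans 18675 bases. C4b (chr17:34728380-34743882), Cfb (chr17:34856374-34862518) and C3 (chr17:57203970-57228136) lie on chromosome 17, and Cfp (chrX:20925454-20931555) lies on the X chromosome. The receptors lie apart, C3ar1 at chr6:122847138-122856161 and C5ar1 at chr7:16246743-16259540. The RefSeq promoter table (GRCm38.p6) held 6 of the 9 members, and the 250 bases upstream of the start are printed for a chain of C1q, for C3 and for Cfp, to show an abundant gene that was not called between regions (C1qb), one that was (Cfp) and one that was not called but lay higher in the midbrain in both cohorts (C3). Capitals mark a match, on either strand, to GAGGAA (the core of PU.1-type ETS sites), GAAANNGAA (interferon response), TTNCNNAA (C/EBP) or TGCTGA (part of MAF sites), where N is any base.
C1qb, chr4:136886201-136886450, minus strand: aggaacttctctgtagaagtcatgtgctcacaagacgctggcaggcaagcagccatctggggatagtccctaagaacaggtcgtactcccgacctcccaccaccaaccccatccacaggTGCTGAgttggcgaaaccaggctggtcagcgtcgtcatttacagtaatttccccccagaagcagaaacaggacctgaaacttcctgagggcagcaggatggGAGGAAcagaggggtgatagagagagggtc
C3, chr17:57228137-57228386, minus strand: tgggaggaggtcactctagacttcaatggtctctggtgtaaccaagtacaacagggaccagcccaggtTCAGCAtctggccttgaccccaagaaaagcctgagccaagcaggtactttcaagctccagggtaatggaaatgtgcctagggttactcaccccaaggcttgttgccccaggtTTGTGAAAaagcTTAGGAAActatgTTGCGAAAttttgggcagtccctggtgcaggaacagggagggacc
Cfp, chrX:20931556-20931805, minus strand: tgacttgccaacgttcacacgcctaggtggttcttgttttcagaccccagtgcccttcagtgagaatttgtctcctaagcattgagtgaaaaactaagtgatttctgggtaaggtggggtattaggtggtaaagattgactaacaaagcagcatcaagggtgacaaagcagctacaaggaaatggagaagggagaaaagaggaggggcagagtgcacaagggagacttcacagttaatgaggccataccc
In the C1qb window, GAGGAA began at base -30 and TGCTGA at base -131 from the start, counting -1 as the last base before it. The C3 window held TTNCNNAA at base -45, its reverse complement TTNNGNAA at bases -70, -58 and -45, and the reverse complement of TGCTGA at base -182. The Cfp window held none of these 4 strings. Over 32851 promoter windows of the same length, 23.3% held GAGGAA, 7.1% GAAANNGAA, 36.8% TTNCNNAA and 16.1% TGCTGA, so each match is a description of the sequence only. No measurement of binding was made.

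The C1q chains had far higher levels than the other members in both regions. Divided by exonic length, the mean level over the 8 libraries was 8388 CPM per kb for C1qa, 7782 for C1qb and 2947 for C1qc. It was 27.5 CPM per kb for C3ar1, 24.8 for Cfp, 11.9 for C4b, 10.4 for C5ar1 and 4.46 for C3, while Cfb was at 0. Since MARS-seq reads the 3′ end, counts need not grow with length, and the order without that division was C1qa (8723 CPM), C1qb (8467 CPM), C1qc (5690 CPM), C3ar1 (118 CPM), C4b (68.0 CPM), Cfp (43.0 CPM), C5ar1 (26.8 CPM) and C3 (22.9 CPM). On both scales the ranges over libraries of C1qa and C1qb overlapped, as did those of neighbours among the lower 5 members, and C1qc lay apart from C1qb per length only.

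**Figure D1:**
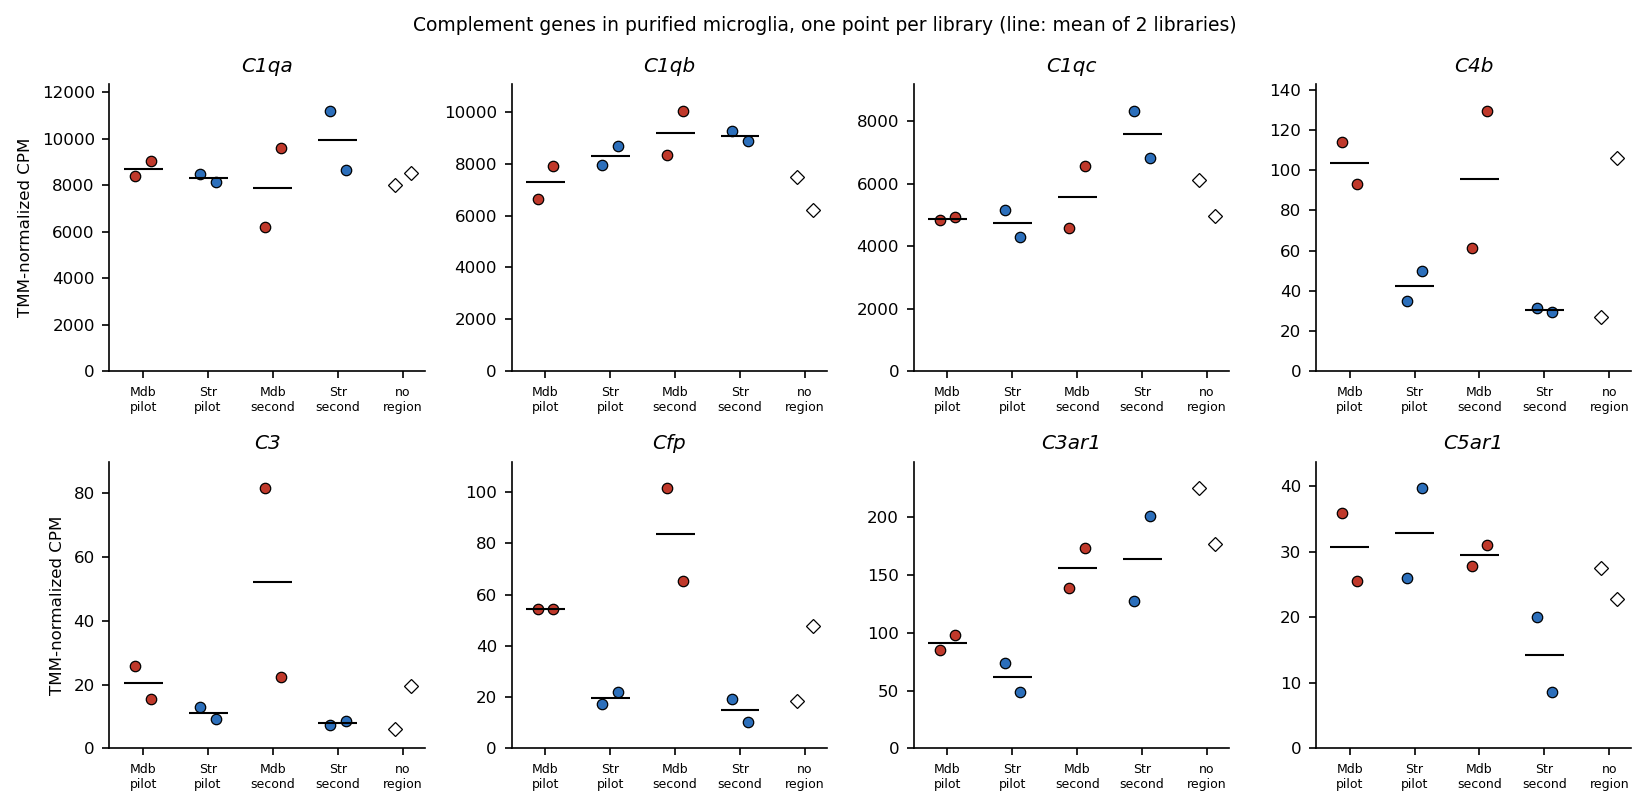
TMM-normalized CPM (vertical axes, linear, from 0) of 8 complement genes in each library, with midbrain (Mdb) in red, striatum (Str) in blue, the mean of 2 libraries as a line, and the 2 libraries without a settled region as open diamonds. For C4b, C3 and Cfp every red point lies above both blue points of its cohort, whereas the points of C1qa overlap in both cohorts.

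The question put to each member was whether its level differed between midbrain and striatum, in each cohort and over both. C4b and Cfp were higher in the midbrain in the assigned libraries of both cohorts, by 2.55-fold and 3.28-fold over all 8 libraries. The C1q chains were not called in either cohort or over both. In the pilot cohort 2 of the 8 members tested were called at an unadjusted p under 0.01 (voom and limma), where 2.64% of all 14972 genes were called. In the second cohort the same 2 of 8 were called, against 3.47% of 13486 genes. In the joint fit of all 8 libraries, with cohort as a term and a Benjamini-Hochberg adjusted p under 0.05, C4b and Cfp were again called, against 1.06% of 14053 genes. The median log2 fold change (midbrain over striatum) of the 8 members in the joint fit was 0.25, with 5 above 0 and 3 below, and that of all genes tested was 0.04.

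**Figure D2:**
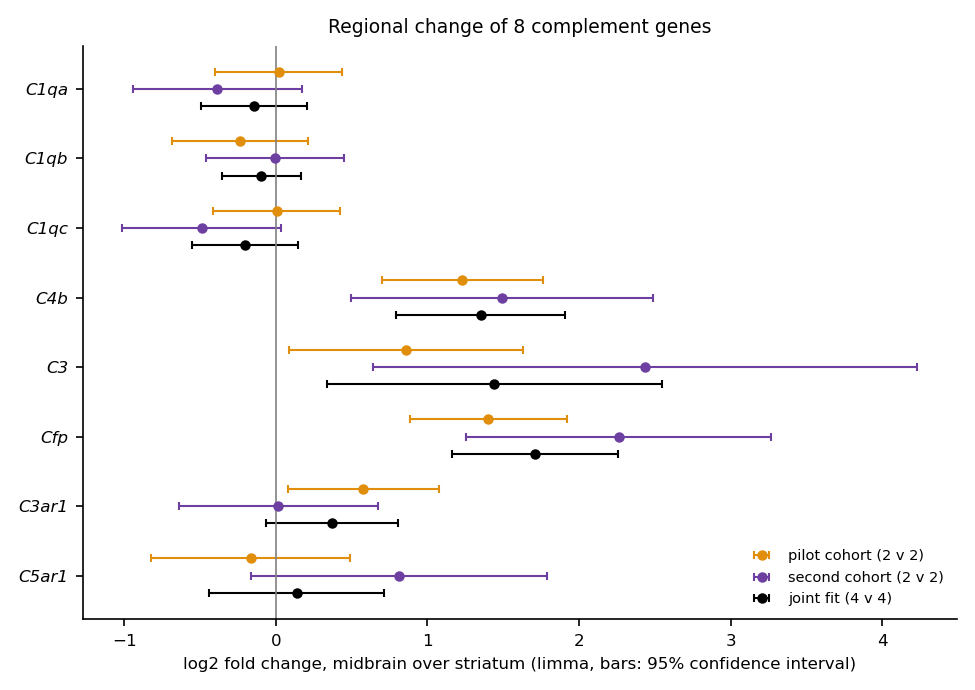
Log2 fold change, midbrain over striatum (horizontal axis), of 8 complement genes in the pilot cohort (orange), the second cohort (purple) and the joint fit (black), with bars for the 95% confidence interval from limma. The intervals of C4b, C3 and Cfp lie above 0 in all 3 fits, and those of the C1q chains include 0.

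The C1q chains carry the recognition step of the classical pathway. C1qa (ENSMUSG00000036887.5) measured 8401 and 9030 CPM in the midbrain and 8503 and 8163 CPM in the striatum of the pilot cohort. The second cohort gave 6195 and 9607 CPM in the midbrain and 11221 and 8668 CPM in the striatum. The regions overlapped in both cohorts, and midbrain second 1 held the lowest level of the 8. The joint log2 fold change of C1qa was -0.14 (SE 0.16, 95% interval -0.50 to 0.21, limma adjusted p = 0.723).

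C1qb (ENSMUSG00000036905.8) measured 6639 and 7923 CPM in the midbrain against 7952 and 8683 CPM in the striatum of the pilot cohort, where the regions did not overlap but the closest libraries were nearly level. The values of the second cohort were 8327 and 10053 CPM in the midbrain and 9276 and 8881 CPM in the striatum, so that the order did not recur. Its joint log2 fold change was -0.09 (SE 0.12, 95% interval -0.36 to 0.17, limma adjusted p = 0.764).

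C1qc (ENSMUSG00000036896.5) measured 4823 and 4946 CPM in the midbrain and 5165 and 4296 CPM in the striatum of the pilot cohort. Both striatum libraries of the second cohort, at 8341 and 6808 CPM, exceeded its midbrain libraries, at 4566 and 6577 CPM. The joint log2 fold change of C1qc was -0.20 (SE 0.16, 95% interval -0.55 to 0.15, limma adjusted p = 0.601). These joint intervals assume the same regional change in both cohorts. In the pilot cohort alone the log2 fold changes were 0.02 (SE 0.19) for C1qa, -0.24 (SE 0.20) for C1qb and 0.01 (SE 0.18) for C1qc. Those of the second cohort were -0.39 (95% interval -0.94 to 0.17) for C1qa and -0.01 (95% interval -0.46 to 0.45) for C1qb. For C1qc the second cohort gave -0.49 (95% interval -1.01 to 0.04), so its intervals reach further than the joint ones.

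Together the 3 chains took from 1.74% of all counts, in midbrain second 1, to 2.81%, in striatum second 1. The mean share was 2.13% in the midbrain and 2.43% in the striatum, a difference that did not pass a two-sided exact permutation test of the region labels within cohorts (p = 0.222, adjusted p = 0.778 over 4 quantities). The smallest p that the 36 labelings allow is 0.0556, so no such test could pass 0.05 here. The chains are needed together in the protein, so their count ratios were compared as well. The mean log2 ratio of C1qb to C1qa was -0.01 in the midbrain and -0.06 in the striatum (exact permutation p = 0.833), that of C1qc to C1qa was -0.66 and -0.61 (p = 0.389 by the same exact test), and that of C1qc to C1qb was -0.66 and -0.54 (p = 0.667 by the same exact test). Within single libraries the ratio of C1qb to C1qa ran from 0.790, in midbrain pilot 1, to 1.34, in midbrain second 1.

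**Figure D3:**
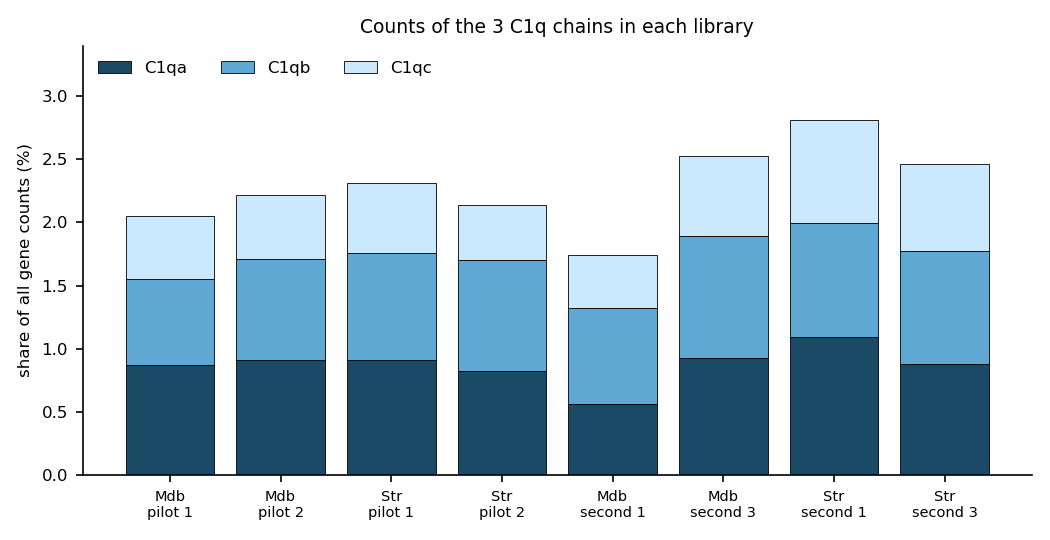
Share of all gene counts, in percent (vertical axis, from 0), taken by C1qa, C1qb and C1qc in each of the 8 libraries, stacked. The sum runs from 1.74% in midbrain second 1 to 2.81% in striatum second 1, and neither region is higher throughout.

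C4b (ENSMUSG00000073418.4) encodes complement C4, which the activated C1 complex cleaves and which forms part of the enzyme that cleaves C3. It measured 114 and 93.2 CPM in the midbrain and 34.9 and 49.9 CPM in the striatum of the pilot cohort. The second cohort gave 61.1 and 130 CPM in the midbrain and 31.6 and 29.2 CPM in the striatum. All 4 midbrain libraries lay above all 4 striatum libraries, although midbrain second 1 stood near the top of the striatum range. The log2 fold change was 1.23 (SE 0.24, unadjusted p = 0.000535, limma adjusted p = 0.167) in the pilot cohort and 1.49 (SE 0.45, unadjusted p = 0.00698, limma adjusted p = 0.256) in the second. The joint log2 fold change was 1.35 (SE 0.25, 95% interval 0.79 to 1.91, limma adjusted p = 0.0356). C4a, a close copy of C4b 65209 bases away, had between 0 and 10 counts in each library, and the counting left out reads that fit both copies, so both levels are uncertain.

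Cfp (ENSMUSG00000001128.7) encodes properdin, the stabiliser of the alternative pathway enzyme. It measured 54.3 and 54.4 CPM in the midbrain and 17.4 and 21.9 CPM in the striatum of the pilot cohort. The values of the second cohort were 102 and 65.2 CPM in the midbrain and 19.3 and 10.3 CPM in the striatum, the last from 6 counts. The midbrain range, 54.3 to 102 CPM, and the striatum range, 10.3 to 21.9 CPM, were widely separated. The log2 fold change was 1.40 (SE 0.23, unadjusted p = 0.000174, limma adjusted p = 0.128) in the pilot cohort and 2.26 (SE 0.46, unadjusted p = 0.000423, limma adjusted p = 0.0729) in the second. The joint log2 fold change was 1.71 (SE 0.25, 95% interval 1.17 to 2.26, limma adjusted p = 0.0181), the largest among the 8 members tested.

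The call of C4b in the second cohort was lost without striatum second 1 (log2 fold change 1.54, adjusted p = 0.371 with limma) or striatum second 3 (1.48, adjusted p = 0.516 with limma), in fits that assume the lone striatum library to vary like the midbrain ones. The calls in the joint fit depended on single libraries too. Neither was called without midbrain pilot 1, striatum pilot 1, striatum second 1 or striatum second 3, where between 0 and 9 genes in all were called, and C4b was not called without midbrain pilot 2 (adjusted p = 0.0611), while their log2 fold changes stayed between 1.16 and 1.94 without any single library. With the 2 unsettled libraries placed by title the joint log2 fold changes were 0.74 for C4b and 1.23 for Cfp and neither was called. Placed by file name they were 1.40 and 1.61 and both were called. In the second cohort, to which these libraries belong, placement by title gave 0.24 for C4b and 0.96 for Cfp, neither called. Placement by file name gave 1.66 and 1.96 there, both called. The second-cohort result of both genes thus depends on how these libraries are labelled.

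C3 (ENSMUSG00000024164.15), the component on which all complement pathways converge, was scarce. It measured 25.9 and 15.3 CPM in the midbrain and 12.9 and 9.24 CPM in the striatum of the pilot cohort, from 68 to 151 counts. Corresponding values in the second cohort were 81.7 and 22.5 CPM in the midbrain and 7.27 and 8.59 CPM in the striatum, where the latter rest on 20 and 5 counts. The midbrain libraries were above the striatum libraries in both cohorts, and midbrain second 1 stood far above the rest. The log2 fold change was 0.86 (SE 0.34, unadjusted p = 0.0327, limma) in the pilot cohort and 2.44 (SE 0.82, unadjusted p = 0.0122, limma) in the second, neither under the threshold of 0.01. The joint value was 1.44 (SE 0.51, 95% interval 0.34 to 2.54), which did not pass the adjusted threshold (limma adjusted p = 0.214) but did with DESeq2 (adjusted p = 0.0104). In the second cohort, edgeR's quasi-likelihood test (adjusted p = 0.0510) and DESeq2 (adjusted p = 0.00379) put C3 under the unadjusted threshold. Its log2 fold change in that cohort was 1.57 without midbrain second 1 and 3.44 without midbrain second 3, in fits of 1 library against 2 that assume the lone midbrain library to vary like the striatum ones. Without midbrain second 1 the joint log2 fold change was 1.03 (limma adjusted p = 0.151).

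C3, C4b and Cfp were thus 3 of the 8 members with both midbrain libraries above both striatum libraries in each cohort, where 9.06% of 14053 genes had that order. Within a cohort 4 of 8 members had it, in the pilot cohort with C3ar1 (23.5% of all genes tested) and in the second with C5ar1 (24.3%). In a bulk library a higher level of these transcripts per cell and a larger number of cells that carry them cannot be told apart.

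Cfb (ENSMUSG00000090231.10), which encodes factor B, had 0 counts in all 8 libraries, which allows up to 0.354 CPM in the deepest library and 5.21 CPM in the shallowest, relative to total counts without TMM. However, 79.5% of its 2825 exonic bases, among them 388 of the last 500, are shared on the same strand with Gm20547, and the counting left out reads that fall in more than 1 gene. Gm20547 also had 0 counts in all 8 libraries, so transcripts of factor B may have gone uncounted, and Cfb was not tested.

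Neither anaphylatoxin receptor was called between regions. C3ar1 (ENSMUSG00000040552.8), which binds C3a, measured 85.1 and 98.2 CPM in the midbrain and 74.1 and 48.8 CPM in the striatum of the pilot cohort. The second cohort gave 139 and 173 CPM in the midbrain and 127 and 201 CPM in the striatum. The regions were separate in the pilot cohort and overlapped in the second. The log2 fold change was 0.58 (SE 0.22, unadjusted p = 0.0274, limma) in the pilot cohort, 0.02 (SE 0.30) in the second and 0.37 (SE 0.20, 95% interval -0.07 to 0.80, limma adjusted p = 0.427) in the joint fit.

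C5ar1 (ENSMUSG00000049130.6), which binds C5a and recruits phagocytes, measured 36.0 and 25.5 CPM in the midbrain and 26.0 and 39.8 CPM in the striatum of the pilot cohort. The values of the second cohort were 27.8 and 31.1 CPM in the midbrain and 20.0 and 8.59 CPM in the striatum, the last from 5 counts. The pilot libraries overlapped and those of the second cohort did not. The log2 fold change of C5ar1 was -0.17 (SE 0.29) in the pilot cohort and 0.81 (SE 0.44, unadjusted p = 0.0947, limma) in the second. Over both, the joint value was 0.14 (SE 0.26, 95% interval -0.44 to 0.72, limma adjusted p = 0.846).

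Between the cohorts, C3ar1 was the single member of 8 to be called. All 4 libraries of the second cohort, at 127 to 201 CPM, exceeded the 4 of the pilot cohort, at 48.8 to 98.2 CPM, and the log2 fold change of second over pilot, adjusted for region, was 1.00 (SE 0.20, limma adjusted p = 0.0140), where 10.5% of all genes tested were called. The call was lost without midbrain pilot 1, where 134 genes were called in place of 1480. C1qc had a cohort log2 fold change of 0.42 (SE 0.16, limma adjusted p = 0.106), and it was called as well with no filter on low counts or without midbrain second 1. The cohorts were made separately, so differences in animals, handling and library making cannot be told apart. The regional change itself differed between cohorts for 0 of the 8 members by limma's interaction term (adjusted p from 0.861 to 0.957), where 0% of genes tested were called and 771 of 14053 had an unadjusted p under 0.05. Of the 8 members, 0 had an unadjusted p under 0.05 in that test, and edgeR's quasi-likelihood test and DESeq2 called 0 as well.

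Markers of other CD11b-carrying cells had higher levels in the midbrain, as C3, C4b and Cfp did. All 8 border macrophage genes tested of 9 had a higher level in the midbrain (5 called, median log2 fold change 1.57), with summed levels of 1309 to 2420 CPM in the midbrain and 275 to 754 CPM in the striatum. The highest by mean level were Pf4, Cbr2 and Mrc1, and Folr2 was at 0 in 6 libraries. All 10 monocyte genes were higher in the midbrain (4 called, median 2.10), with summed levels of 388 to 3421 CPM against 162 to 253 CPM, and Vcan and Ms4a4c were among those at 0 in striatum second 3. All 10 neutrophil genes were higher as well (5 called, median 2.02), with 782 to 6157 CPM against 287 to 543 CPM. The highest monocyte and neutrophil sums were those of midbrain second 1, the library with the highest C3 and Cfp and the lowest midbrain C4b. None of the 12 microglial genes was higher in the midbrain (2 called lower, median -0.62). The part of these cells in the levels of the members was not tested. With midbrain second 1 and striatum second 3 both left out, an alternative chosen after seeing the data, C4b (log2 fold change 1.44, limma adjusted p = 0.0440) and Cfp (1.49, limma adjusted p = 0.0231) were called. The border macrophage sums of the remaining libraries ran from 1309 to 2420 CPM in the midbrain and from 305 to 754 CPM in the striatum. The monocyte sums of these libraries ran from 388 to 846 CPM in the midbrain and from 162 to 253 CPM in the striatum. Neutrophil sums ran from 782 to 3608 CPM in the midbrain and from 287 to 524 CPM in the striatum.

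**Figure D4:**
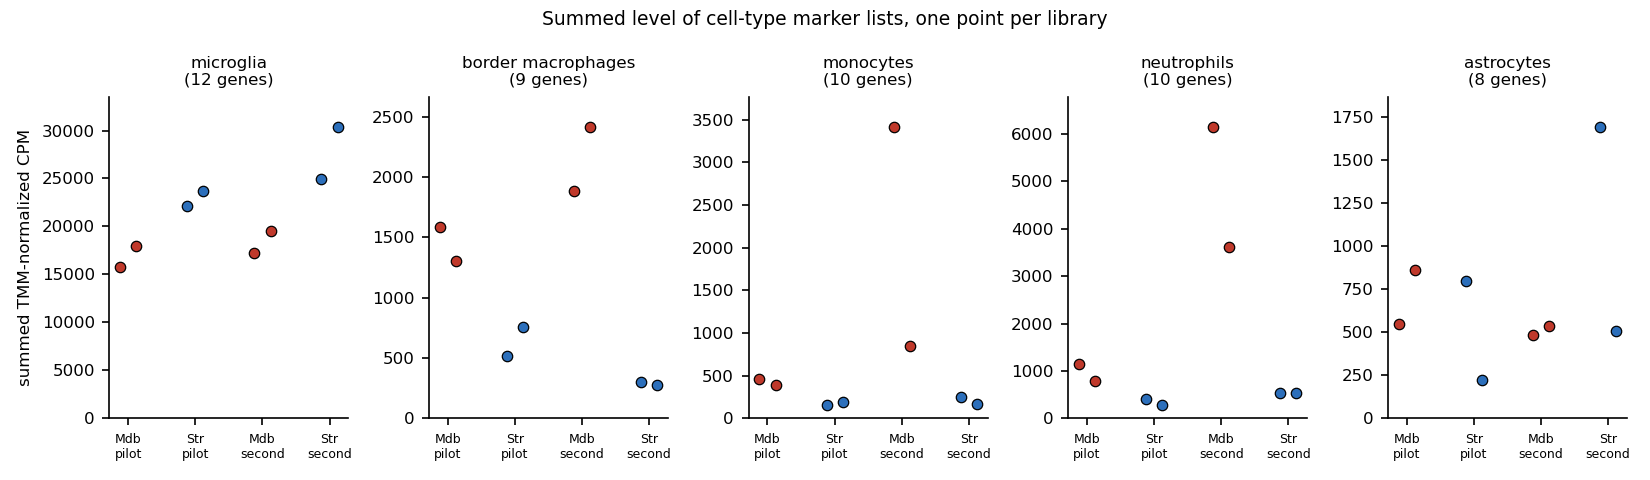
Summed TMM-normalized CPM (vertical axes, linear, from 0) of marker lists for microglia, border macrophages, monocytes, neutrophils and astrocytes, 1 point per library, midbrain in red and striatum in blue. Microglial sums are lower and those of border macrophages, monocytes and neutrophils higher in the midbrain in both cohorts, with midbrain second 1 highest for monocytes (3421 CPM) and neutrophils (6157 CPM).

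Of the remaining lists, 5 of 6 T and NK cell genes tested, 6 of 6 fibroblast, 5 of 5 choroid and ependymal, 6 of 8 oligodendrocyte, 4 of 8 astrocyte, 4 of 8 endothelial, 1 of 3 neuronal and 0 of 2 B cell genes were higher in the midbrain, and 1 of them, Nkg7 of the T and NK cell list, was called (named after its value was seen).

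The genes whose pattern over the 8 libraries was most like that of a member were sought among 7036 genes that reached 10 counts in each library, by Pearson's r of log2 CPM centred within each cohort. These are the highest of many values over 8 libraries that share depth and composition, and they carry no p. The difference between regions was not taken out, so genes that share it rank high together. C3, Cfp and C5ar1 fell under 10 counts in a library and were left out. For C4b the closest were Ms4a7 (0.987), Gas6 (0.973) and Tpm4 (0.968), of which Ms4a7 is also on the border macrophage list. C1qa and C1qc were close to each other (0.948), at rank 11 for C1qa and rank 21 for C1qc. C1qb was not close to either (0.413 with C1qa and 0.235 with C1qc), although it lies in the same cluster. The leading genes were Dmap1 (0.972), Pura (0.971) and Wdr55 (0.969) for C1qa, Nol7 (0.990), Enc1 (0.965) and Arhgap21 (0.953) for C1qb, Eif4h (0.993), Bin1 (0.989) and Ak1 (0.980) for C1qc, and Strbp (0.980), Ap1g1 (0.955) and Ppp1r12c (0.940) for C3ar1.

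The rest of the pathway was described with 46 further complement genes. Of these, 22 passed the filter in the joint fit, 15 with a higher and 7 with a lower level in the midbrain, and 4 were called, all higher (1.06% of all genes tested were called). Their median log2 fold change was 0.21. By role, 3 of 4 classical pathway genes tested were higher and 0 called, 2 of 3 lectin pathway genes were higher and called, 3 of 5 receptors were higher and 1 called, and 6 of 9 regulators were higher and 1 called. The single terminal pathway gene tested was higher and not called, and 11 genes, among them Cfd (factor D), C7, C8a, C8b and C9, named after their values were seen, had 0 counts in all 8 libraries.

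Among the receptors, Cd93, a surface lectin once described as a C1q receptor, measured 19.2, 21.9, 43.1 and 44.6 CPM in the midbrain and 7.96, 5.96, 6.18 and 1.72 CPM in the striatum, the last from 1 count, and its joint log2 fold change was 2.09 (SE 0.34, limma adjusted p = 0.0210). Itgam, which encodes the CD11b bound by the beads and forms complement receptor 3 with Itgb2, averaged 699 and 1025 CPM in the midbrain and striatum of the pilot cohort and 652 and 798 CPM in the second. Its joint log2 fold change was -0.40 (SE 0.17, limma adjusted p = 0.292), and that of Itgb2 was -0.04 (SE 0.13, limma adjusted p = 0.922). Much of Itgam, 68.7% of its exonic bases, is shared with Gm49368, though none of its last 500.

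Among the lectin pathway genes, Fcna, a ficolin that recognises sugars, measured 30.3, 19.9, 37.8 and 48.5 CPM in the midbrain and 10.8, 7.25, 11.6 and 3.44 CPM in the striatum, the last from 2 counts, with a joint log2 fold change of 1.76 (SE 0.32, limma adjusted p = 0.0285). Colec12, a membrane collectin, had one of 1.25 (SE 0.25, limma adjusted p = 0.0420). Serping1, the inhibitor of the C1 proteases, measured 16.8, 17.3, 18.9 and 14.2 CPM in the midbrain and 8.15, 4.21, 8.37 and 1.72 CPM in the striatum, the last from 1 count (log2 fold change 1.57, SE 0.32, limma adjusted p = 0.0442). All 4 called genes had both midbrain libraries above both striatum libraries in each cohort, as 9.06% of 14053 genes did. They were named because the joint fit of the same libraries called them, so this order adds no support. Colec12 had 3 counts in striatum second 3. The abundant regulators Clu and Vtn were not called. The log2 fold change of Clu, which encodes clusterin, was -0.05 (SE 0.39), and that of Vtn, which encodes vitronectin, was 0.16 (SE 0.21). With midbrain second 1 and striatum second 3 both left out, 0 of these further genes were called. The same count was reached without midbrain pilot 1, striatum pilot 1, striatum second 1 or striatum second 3 alone, and 1 or 2 were called without midbrain pilot 2, striatum pilot 2 or midbrain second 1.

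**Figure D5:**
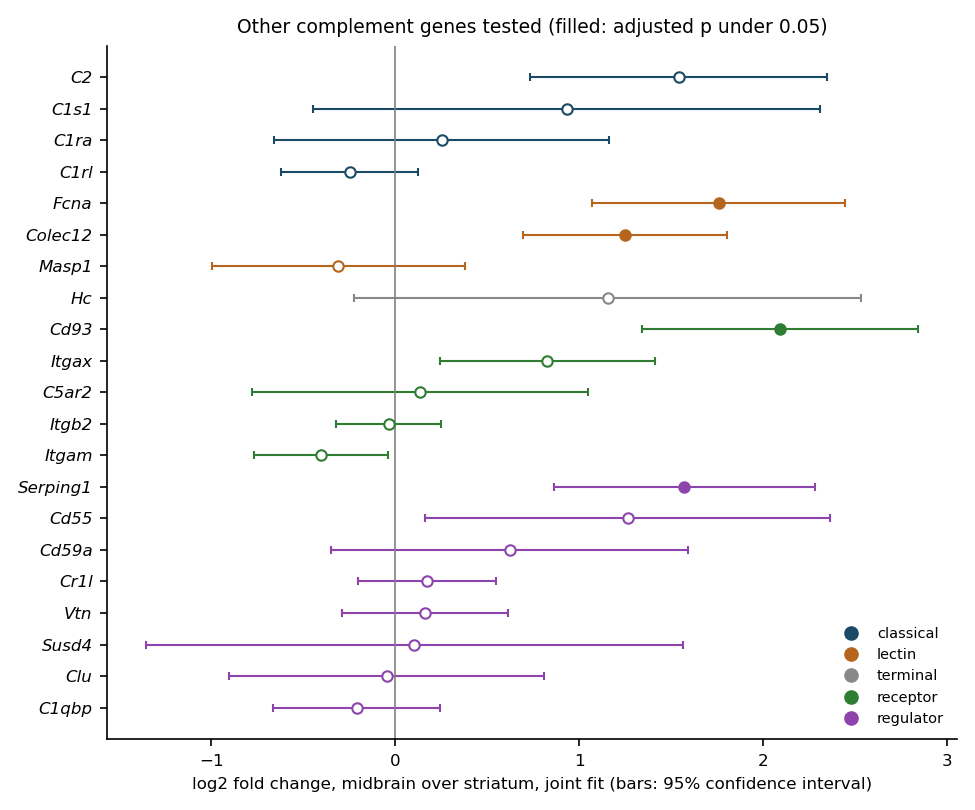
Joint log2 fold change, midbrain over striatum (horizontal axis), with 95% confidence intervals, of further complement genes tested (1 is not shown), coloured by role, with filled points for an adjusted p under 0.05. The 4 filled points, Cd93, Fcna, Colec12 and Serping1, lie between 1.25 and 2.09, and most regulators have intervals that include 0.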

How the data were processed

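Raw read counts per gene were deposited by the authors, who aligned the reads to GRCm38 with STAR (2.5.3a, per the labels), counted exonic reads with featureCounts (1.6.0) on Gencode M17, without strand and without reads that map to several places or genes, and applied no normalization. Use of molecular identifiers is not given in the sources used here. Symbols were matched to 53620 of 53715 identifiers. Groups come from the labels, and 2 libraries whose title and file name disagree on region were left out. Each fit, in R 4.3.3, dropped a gene if over 50% of its libraries had under 6 counts of it. TMM factors (edgeR 4.0.16), voom, lmFit and eBayes (limma 3.58.1) were applied to each cohort (unadjusted p under 0.01, the test and threshold of the study's methods) and to both with cohort as a covariate (Benjamini-Hochberg adjusted p under 0.05 over all genes tested). CPM are scaled to the counts of genes passing the joint filter, with factors from the 8 libraries, or from all 10 for the unassigned ones. The procedure was tested on simulated counts with the same spread for every gene and no cohort effect, unlike these data. That test checks the code and not the spread of these libraries. As alternatives, DESeq2 1.42.0, the quasi-likelihood test of edgeR, library size alone, no filter, at least 10 counts in every library, a replicate block, thinned counts, looser thresholds (0.05 and 0.1), both placements of the unassigned libraries and leaving out each library were run. Named were all 9 members, further complement genes called in the joint fit or in both cohorts, the 5 of these with the highest mean CPM, and the 3 genes most like each member, except that some items are not reported here. The members and lists were chosen with earlier results of these data known. Deviations of libraries with the same replicate number correlated at -0.03 in the pilot and 0.08 in the second cohort. With 2 libraries per group these values cannot show whether such libraries share a mouse. The numbers were not taken to pair libraries because the mouse behind each library is not stated.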

Additional observations from a re-analysis of the deposited data

Results flagged for a closer look

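The 2 libraries of the second cohort whose labels name both regions were used in no comparison, and their values stand here because the members lay above the 3-count floor in them. In the library titled midbrain (1584013 counts), C1qa measured 8027 CPM, C1qb 7495, C1qc 6107, C3 6.12, C4b 26.9, Cfp 18.3, C3ar1 226 and C5ar1 27.5 CPM. In the library titled striatum (5194739 counts), C1qa measured 8531 CPM, C1qb 6201, C1qc 4965, C3 19.4, C4b 106, Cfp 47.7, C3ar1 177 and C5ar1 22.8 CPM. Cfb had 0 counts in both. These values were not used to settle the region of either library.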

How the results depend on the processing

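Over 330 recomputed log2 fold changes of single members, 21 turned in sign, all of them uncalled. C1qc in the pilot cohort was -0.00419 with no filter. In the second cohort C1qb was 0.00338 with edgeR's quasi-likelihood test, 0.00700 with DESeq2, 0.0249 with no filter, 0.0575 with at least 10 counts in every library and 0.0765 with the unassigned libraries placed by title, and C3ar1 was -0.0699 with edgeR's test, -0.0701 with DESeq2, -0.0489 with library size alone, -0.0443 with the replicate block, -0.33 with thinned counts and -0.12 with placement by file name. Without a library in turn, the pilot values ran from -0.0265 to 0.0821 for C1qa, -0.0866 to 0.12 for C1qc and -0.45 to 0.22 for C5ar1, and in the second cohort from -0.0936 to 0.16 for C1qb and -0.41 to 0.28 for C3ar1.

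Members called in the pilot cohort, 2, became 4 at the looser threshold, where 1626 of 14972 genes were called. Of the libraries left out in turn, only striatum pilot 1 moved the count of members called. In the second cohort 2 became 1 with at least 10 counts in every library (5 tested), 0 with placement by title, and 1 to 5 without a library in turn. In the joint fit 2 became 1 with at least 10 counts in every library, 0 with placement by title, and 0 to 2 without a library in turn. Further complement genes called, 4, became 0 with at least 10 counts in every library (9 tested), 2 with thinned counts, 0 with placement by title, 0 to 4 without a library in turn, and 0 with midbrain second 1 and striatum second 3 both left out, an alternative chosen after seeing the data. Members called between cohorts, 1, became 2 with no filter and 0 to 2 without a library in turn. Leaving out a library within a cohort sets 1 library against 2 and assumes the lone one to vary like the other region. Such fits also called C1q chains, all lower in the midbrain. These were C1qb without striatum pilot 1 (log2 fold change -0.33), and C1qa (-0.66) and C1qc (-0.71) without midbrain second 3. Fewer genes or libraries enter several of these fits, and otherwise the cause was not tested. The 0 calls of the interaction term held in all 16 alternatives.

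With the replicate block, 2, 3 and 2 members were called in the pilot, second and joint fits, the addition being C3 in the second cohort (log2 fold change 2.89), and 401, 988 and 308 genes in all. The block changed no other call of a member, and it could not be fitted for the cohort contrast.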
